A study of Mus musculus with 8 samples.

Results

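This account describes the gene expression of mouse CD8 T cells that lack the NF-kB subunits p50 and cRel after culture with dendritic cells carrying the N4 peptide, set against wild-type CD8 T cells cultured with dendritic cells that carried no peptide. The arrays were chosen by their titles: 2 arrays of p50 cRel double knockout cells with N4 (DKO N4) and 2 arrays of unstimulated wild-type cells (WT UN), 4 of the 8 arrays in the series. Genotype and peptide both differ between these groups, so their effects cannot be told apart in this comparison. The 2 arrays of wild-type cells with N4 (WT N4) are given beside them where the values help to place the double knockout. The last 2 arrays of the series, of PKC theta knockout cells with N4, entered the filter and the model, but their levels are not given. The readout is every probe set with 1 autosomal gene symbol, 33729 of 45037 probe sets that are not controls, of which 22252 passed the filter on low signal and stand for 12118 genes.

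All cells were primary CD8 T cells from spleens of C57BL/6 mice, selected with magnetic beads and kept in culture for 18 h at 10 T cells per dendritic cell, with dendritic cells grown from bone marrow. N4 is a peptide of ovalbumin. In every group the dendritic cells were then taken out through their surface protein CD11c, and 100 ng of total RNA was labelled for 1 one-colour Affymetrix array per sample. The T cell receptor, the ages and the sexes of the mice are not given in the sources used here, nor is it stated that the 2 arrays of each group hold separate mice or cultures. A p-value here thus reflects no more than the spread from array to array, which may be technical.

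NF-kB proteins are dimeric transcription factors held in the cytoplasm by inhibitors of the IkB family until a receptor signal releases them. The T cell receptor and the costimulatory receptor CD28 reach them through PKCθ and the CARMA1-BCL10-MALT1 complex. p50, encoded by Nfkb1, binds DNA but has no activation domain of its own, while cRel, encoded by Rel, is a transactivating subunit found mostly in lymphocytes and best known in T cells for its role at cytokine genes such as Il2.

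Levels below are log2(signal + 16), on which a signal of 0 reads 4, and differences are DKO N4 minus WT UN on that log2 scale unless another pair is named. This scale understates the fold change of genes with low signal. A gene was called changed at a Benjamini-Hochberg adjusted p under 0.05 in a limma model of all 8 arrays. Rel had levels of 6.19 and 5.92 on the DKO N4 arrays, 9.82 and 9.53 on the WT N4 arrays, and 10.09 and 9.83 on the WT UN arrays, a difference of -3.91 ± 0.26 (SE, n = 2 each, limma adjusted p = 3.0e-05). Nfkb1 was not analysed here. The sex-linked genes, which are outside the autosomal rule, also separated the genotypes. Eif2s3y, a gene of the Y chromosome, read 5.42 and 5.88 on the DKO N4 arrays, against 11.06 and 10.65 on the WT UN arrays, and Kdm5d and Uty were lower as well (differences of -4.13 and -3.81). Xist, the RNA that coats the inactive X chromosome, read 12.57 and 12.27 in DKO N4, 5.18 and 6.65 in WT N4, and 6.05 and 11.84 in WT UN. Replicate 2 of WT UN thus held both Xist and the Y-linked transcripts at high levels, and genotype and sex cannot be told apart across the autosomal results.

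The WT UN arrays also had higher levels of the markers of other cell types. The mean level of 39 markers of dendritic cells and macrophages was 7.50 and 7.55 on the DKO N4 arrays, against 11.33 and 11.09 on the WT UN arrays. For 19 B cell markers it was 8.11 and 8.14 in DKO N4, against 11.71 and 11.23 in WT UN, and for 11 neutrophil markers 6.30 and 6.30 in DKO N4, against 10.03 and 10.37 in WT UN. Each of these lists was thus lower on both DKO N4 arrays, while the mean of 9 CD8 T cell markers was 12.70 and 12.42 in DKO N4, against 11.68 and 11.98 in WT UN. Cd8b1, a chain of the CD8 coreceptor that marks the labelled cell type, was high on all 4 arrays, at 12.95 and 12.75 in DKO N4, against 12.45 and 12.62 in WT UN. In such bulk samples, fewer cells of a type and less RNA per cell cannot be told apart. The part of these other cells in the results below was not tested.

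**Figure D1:**
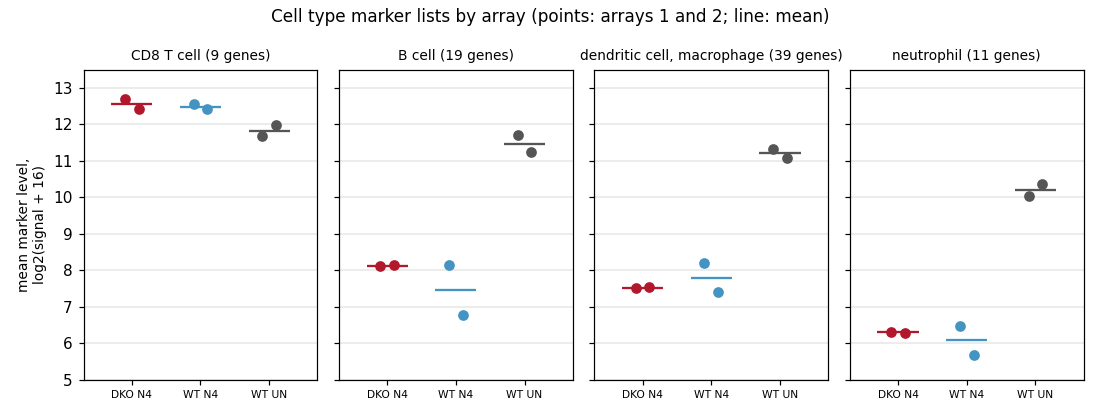
Mean level of 4 lists of cell type markers, log2(signal + 16), for p50 cRel DKO N4, WT N4 and WT UN; points are single arrays and lines are group means. The B cell, dendritic cell and macrophage, and neutrophil lists lie at 10.03 or above on both WT UN arrays and at 8.19 or below on every N4 array, while the CD8 T cell list lies between 11.68 and 12.70 throughout.

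Of the 12118 autosomal genes tested, 4773 (39.4%) were called between DKO N4 and WT UN. Higher in DKO N4 were 1994 genes (16.5%), and 2779 (22.9%) were lower. The largest differences were more often downward: 96 genes rose at least 4-fold (0.792%) and 853 fell at least 4-fold (7.04%). For 70.6% of all genes tested the arrays of the groups did not overlap, and this held for all 4773 called genes. The balance of directions depended on the scaling. Of the called genes 41.8% were higher with the deposited scaling, with a median over all genes of -0.12. With quantile normalization 52.1% were higher, at a median of 0.08, and with every array centred on its median 59.2% of 3422 called genes were higher, at a median of 0.27. Leaving out DKO N4 replicate 1 lowered the count of called genes to 3132. For WT N4 against WT UN, which uses the same WT UN arrays, 4941 genes (40.8%) were called, 2083 higher (17.2%) and 2858 lower (23.6%). In the gene lists below, some counts of 0 to 2 members changed by 1 or 2 when single arrays were left out.

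**Figure D2:**
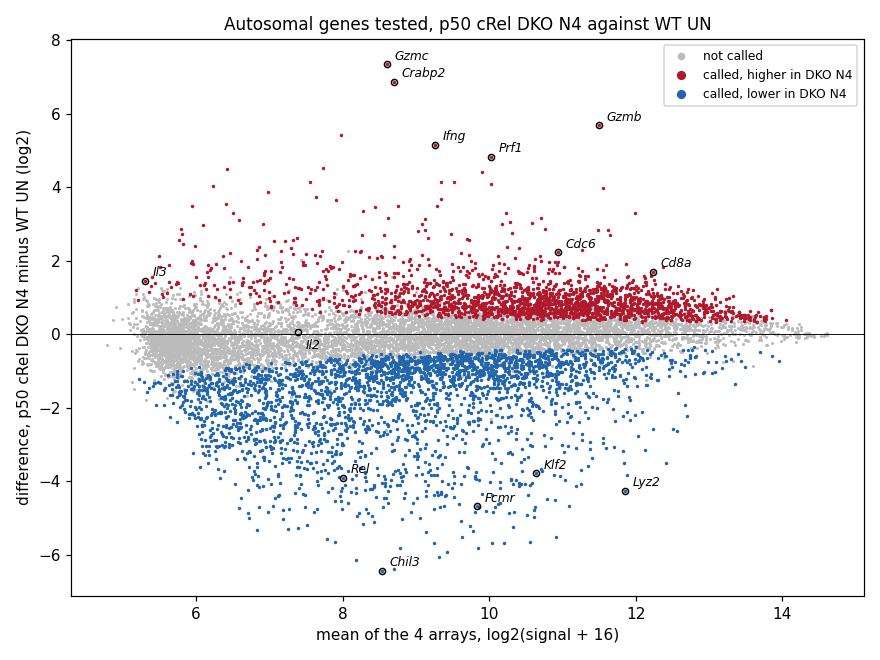
Difference between p50 cRel DKO N4 and WT UN (log2) against the mean of the 4 arrays, log2(signal + 16), for each autosomal gene tested; red and blue points are genes called higher and lower in DKO N4, grey points were not called, and circled points carry their names. Gzmc, Crabp2 and Gzmb mark the upper edge, Chil3 the lower edge, and Il2 lies on the line of no difference.

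Several genes of killing were among the largest single rises. Of 19 measured genes of cytotoxic granules and their targets, 9 were higher in DKO N4 cells, 3 were lower and 7 did not pass, with a median difference of 0.92. Of all genes tested, 16.5% were higher and 22.9% lower. Differences in the list ran from -3.46 to 7.34. Against WT N4 they ran from -3.01 to 5.43, with 2 members called higher and 0 lower. The median was 0.29 without a filter on low values, 0.47 without WT UN replicate 1 and 1.31 with arrays centred on their medians. Gzmc, a granzyme of activated killer cells, read 12.35 and 12.20 in DKO N4 cells, 6.43 and 7.26 in WT N4 cells, and 4.22 and 5.64 in WT UN cells. Its difference of 7.34 ± 0.47 from WT UN (SE, n = 2 each, limma adjusted p = 2.8e-05) rests on low WT UN levels, and it was 8.77 with 1 added to the signal in place of 16 and 5.95 with 64 added. Gzmb, the granzyme that cleaves caspases in the target cell, read 14.57 and 14.12 in DKO N4 cells, 14.11 and 13.91 in WT N4 cells, and 7.43 and 9.89 in WT UN cells. The difference was 5.68 ± 0.62 (SE, limma adjusted p = 0.00022), and the groups did not overlap, as for every called gene. The 2 WT UN arrays set the size of this rise: it was 4.45 without WT UN replicate 1 and 6.91 without replicate 2, and for Gzmc 6.63 and 8.05.

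Prf1, the pore-forming perforin, read 12.38 and 12.50 in DKO N4 cells, 10.20 and 10.11 in WT N4 cells, and 7.33 and 7.89 in WT UN cells (difference from WT UN 4.83 ± 0.20, SE, limma adjusted p = 9.0e-06). A further probe set of Prf1 differed by only 0.67 and did not pass, so its rise rests on 1 probe set. Fasl, the ligand of the death receptor Fas, read 9.68 and 9.79 in DKO N4 cells, against 5.56 and 6.60 in WT UN cells, a difference of 3.65. Cst7, an inhibitor of granule cathepsins, rose by 2.03. All of these genes were higher on both DKO N4 arrays than on either WT UN array, as was every gene called higher. The 3 members that were lower became 1 when WT UN replicate 1, DKO N4 replicate 1 or DKO N4 replicate 2 was left out.

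**Figure D3:**
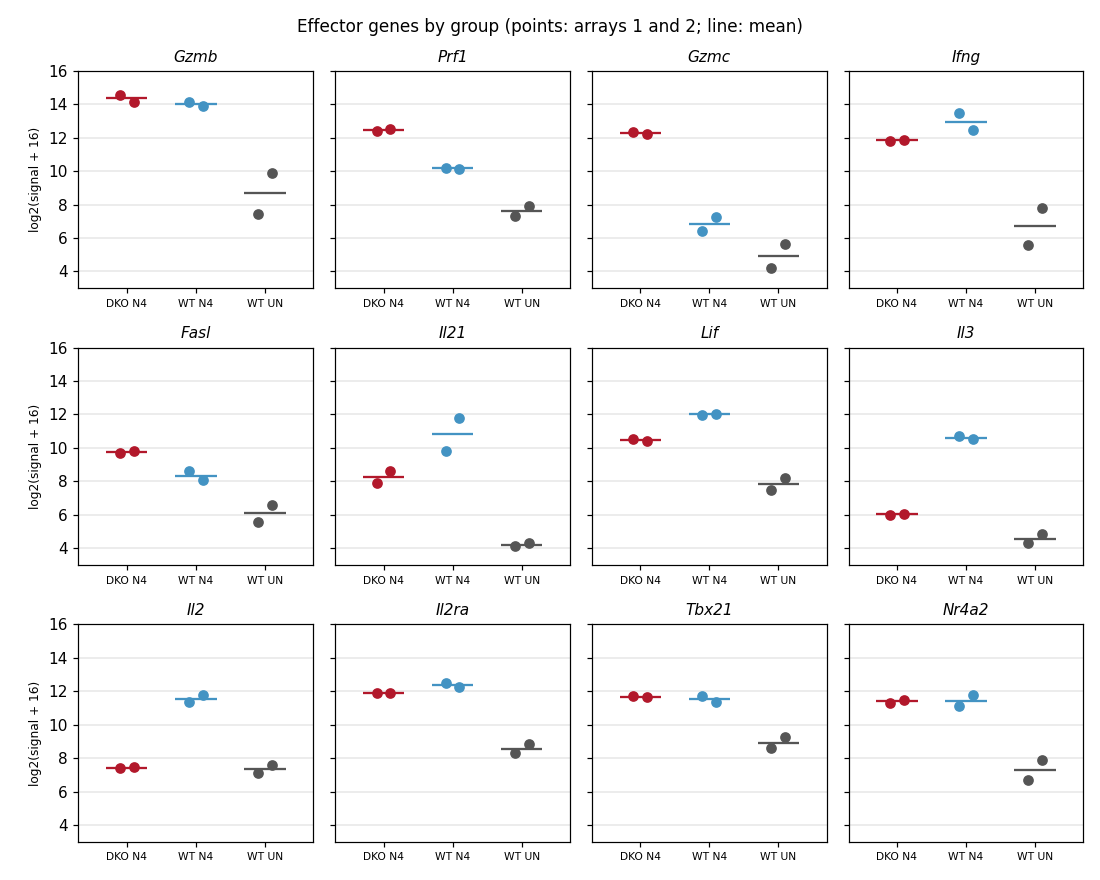
Levels, log2(signal + 16), of 12 effector genes in p50 cRel DKO N4, WT N4 and WT UN; points are single arrays and lines are group means. Gzmb, Prf1, Gzmc, Ifng, Fasl, Il21, Lif, Il2ra, Tbx21 and Nr4a2 lie higher in DKO N4 than in WT UN, Il3 lies slightly higher, and Il2 lies at the WT UN level.

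Of 26 measured cytokines and chemokines, 9 were higher in DKO N4 cells, 5 were lower and 12 did not pass, with a median difference of 0.22. The share lower was near the 22.9% of all genes tested, and the share higher was above their 16.5%. Ifng, the macrophage-activating cytokine of killer cells, read 11.80 and 11.86 in DKO N4 cells, 13.45 and 12.45 in WT N4 cells, and 5.58 and 7.79 in WT UN cells. The difference from WT UN was 5.14 ± 0.64 (SE, n = 2 each, limma adjusted p = 0.00043), 4.04 without WT UN replicate 1 and 6.25 without WT UN replicate 2. Il21, which acts on B cells and T cells, read 7.87 and 8.59 in DKO N4 cells, 9.80 and 11.81 in WT N4 cells, and 4.14 and 4.29 in WT UN cells (difference from WT UN 4.02). Lif, a cytokine of the IL-6 family, read 10.52 and 10.42 in DKO N4 cells, 11.97 and 12.03 in WT N4 cells, and 7.51 and 8.22 in WT UN cells (difference from WT UN 2.60). In these 3 genes both DKO N4 arrays lay above both WT UN arrays and below both WT N4 arrays. None of the 3 was called against WT N4, with differences of -1.12, -2.57 and -1.53 in that order. Xcl1, a chemokine that attracts cross-presenting dendritic cells, read 13.70 and 13.38 in DKO N4 cells, 12.91 and 11.58 in WT N4 cells, and 8.57 and 10.58 in WT UN cells (difference from WT UN 3.97, 2.97 without WT UN replicate 1 and 4.98 without replicate 2).

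Il2, the main T cell growth factor, did not pass the test. It read 7.39 and 7.46 in DKO N4 cells, 11.34 and 11.75 in WT N4 cells, and 7.12 and 7.60 in WT UN cells, with a difference from WT UN of 0.06 ± 0.30 (SE, n = 2 each, limma adjusted p = 0.90). The DKO N4 arrays lay within the range of the WT UN arrays. Il3, a growth factor of myeloid precursors, read 6.00 and 6.05 in DKO N4 cells, 10.69 and 10.53 in WT N4 cells, and 4.28 and 4.87 in WT UN cells. It passed the test against WT UN with a difference of 1.45 ± 0.29 (SE, limma adjusted p = 0.0041), while WT N4 differed from WT UN by 6.03. Among the members that were lower, Ccl9, a chemokine of myeloid cells, read 8.56 and 8.54 in DKO N4 cells, against 13.39 and 12.66 in WT UN cells (difference -4.48), and the anti-inflammatory Il10 fell by 3.95.

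Il17a, Csf2 and Tnf were singled out after their values were seen. Il17a, the signature cytokine of type 17 cells, read 7.98 and 8.73 in DKO N4 cells, 13.29 and 12.67 in WT N4 cells, and 6.25 and 10.81 in WT UN cells. The WT UN arrays lay so far apart that its difference of -0.17 became -2.46 without WT UN replicate 1 and 2.11 without WT UN replicate 2. Csf2, the growth factor GM-CSF, read 4.50 and 5.35 in DKO N4 cells, against 4.46 and 7.40 in WT UN cells, and its difference of -1.01 became -2.48, past the test, without WT UN replicate 1. Tnf, which is also made by macrophages, read 10.13 and 9.33 in DKO N4 cells, against 11.02 and 11.17 in WT UN cells (difference -1.36, limma adjusted p = 0.0045), and did not pass with arrays centred on their medians.

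The promoters of Il2, Il3, Ifng and Gzmb are shown because these 4 genes span the range between no difference and a difference above 5. Each is the RefSeq sequence on GRCm38.p6 that runs 250 bases before and 50 bases after the annotated start, 5′ to 3′ on the strand of the gene, with motif matches in capitals. The motifs were a kB sequence (GGG and TTTCC set 2 bases apart), the core of the CD28 response element (GGAATTTC) and an AP-1 site (TGANTCA), searched on both strands. Of 32851 promoters of this length, 1.63%, 0.962% and 7.81% hold them in that order. None of the 4 promoters matched that kB sequence. A looser kB motif, GGGNNTTC, was added after this had been seen, and 15.2% of promoters hold it.
Il2, chr3:37125905-37126204, minus strand: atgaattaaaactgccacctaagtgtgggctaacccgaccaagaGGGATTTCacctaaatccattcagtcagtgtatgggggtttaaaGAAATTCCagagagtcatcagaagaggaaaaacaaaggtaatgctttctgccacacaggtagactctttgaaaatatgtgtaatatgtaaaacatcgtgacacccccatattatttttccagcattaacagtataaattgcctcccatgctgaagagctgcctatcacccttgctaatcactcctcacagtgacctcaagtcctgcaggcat
Il3, chr11:54267230-54267529, minus strand: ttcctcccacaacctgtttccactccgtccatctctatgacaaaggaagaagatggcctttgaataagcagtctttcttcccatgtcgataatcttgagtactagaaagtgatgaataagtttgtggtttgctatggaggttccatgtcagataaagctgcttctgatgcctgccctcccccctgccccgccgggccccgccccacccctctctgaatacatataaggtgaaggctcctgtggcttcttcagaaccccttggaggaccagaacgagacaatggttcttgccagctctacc
Ifng, chr10:118440796-118441095, plus strand: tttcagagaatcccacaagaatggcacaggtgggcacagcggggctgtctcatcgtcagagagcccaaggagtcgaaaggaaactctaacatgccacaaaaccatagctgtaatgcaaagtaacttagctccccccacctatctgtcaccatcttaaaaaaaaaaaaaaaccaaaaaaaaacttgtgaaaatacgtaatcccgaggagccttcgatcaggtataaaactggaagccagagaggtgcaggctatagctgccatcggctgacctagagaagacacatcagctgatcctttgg
Gzmb, chr14:56262285-56262584, minus strand: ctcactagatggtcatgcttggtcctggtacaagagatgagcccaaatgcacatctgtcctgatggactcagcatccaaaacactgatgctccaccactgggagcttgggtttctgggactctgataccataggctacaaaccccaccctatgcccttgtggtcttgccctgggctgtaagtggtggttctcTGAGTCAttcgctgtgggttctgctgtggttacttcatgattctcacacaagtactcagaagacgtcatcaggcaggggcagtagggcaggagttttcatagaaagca

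In the Il2 promoter the first capitals match the looser GGGNNTTC, which ends 199 bases before the start, and the second match GGAATTTC on the opposite strand, 155 bases before the start. The capitals in the Gzmb promoter match TGANTCA, 52 bases before the start. The windows of Il3 and Ifng hold none of the 4 motifs, which says only that these letters are not within them.

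Cytokine receptors were more often lower: of 23 measured, 5 were higher, 14 lower and 4 did not pass, with a median difference of -1.21. The share higher was near the 16.5% of all genes tested, while the share lower was above their 22.9%. Il2ra, the high-affinity chain of the IL-2 receptor, read 11.89 and 11.87 in DKO N4 cells, 12.52 and 12.26 in WT N4 cells, and 8.28 and 8.87 in WT UN cells (difference from WT UN 3.31 ± 0.27, SE, limma adjusted p = 6.5e-05). Il12rb1, a chain of the IL-12 and IL-23 receptors, rose by 3.48. Il2ra and Il12rb1 were thus high in cells whose Il2 level was that of WT UN cells. Il7r, the receptor of the survival cytokine IL-7, read 10.10 and 10.19 in DKO N4 cells, against 12.84 and 13.08 in WT UN cells (difference -2.82), and Il10rb fell by 1.94, a call that its second probe set did not pass.

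Among 12 measured targets and feedback genes of STAT5, the transcription factor downstream of IL-2, 2 were higher, 5 lower and 5 did not pass. Of all genes tested, 16.5% were higher and 22.9% lower, so the share higher was near that of all genes. Cish, a feedback inhibitor of cytokine signalling, read 11.02 and 10.95 in DKO N4 cells, 11.72 and 11.73 in WT N4 cells, and 8.22 and 10.01 in WT UN cells. Its difference of 1.87 from WT UN was 0.98 without WT UN replicate 1, 2.77 without WT UN replicate 2, and did not pass without DKO N4 replicate 1 (limma adjusted p = 0.055). Pim3, a survival kinase, rose by 0.69, a call its second probe set did not pass, and Bcl6, a repressor that STAT5 opposes, fell by 2.48. Stat5a itself read 10.25 and 10.41 in DKO N4 cells, 11.21 and 11.28 in WT N4 cells, and 11.07 and 11.12 in WT UN cells (difference from WT UN -0.76, not past the test with arrays centred on their medians or with its second probe set, which differed by -0.14). The list is small and its median of -0.01 turned to 0.38 with that centring. Its 5 lower members became 3 without either DKO N4 replicate or without WT UN replicate 2, and its 2 higher members became 1 without DKO N4 replicate 1.

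Of 27 measured transcription factors that follow T cell receptor signals, 7 were higher, 6 lower and 14 did not pass (median -0.11). The share lower was near the 22.9% of all genes tested, and the share higher was somewhat above their 16.5%. Nr4a2, an orphan nuclear receptor, read 11.33 and 11.48 in DKO N4 cells, 11.11 and 11.76 in WT N4 cells, and 6.67 and 7.88 in WT UN cells. Its difference of 4.13 from WT UN was 3.53 without WT UN replicate 1 and 4.74 without replicate 2, and 4 further probe sets differed by 1.33 to 3.61. Nr4a3 rose by 1.59 and Fosl1, an AP-1 subunit, by 1.68, and the second probe set of each did not pass. The 6 lower members became 2 without WT UN replicate 1, and 3 without WT UN replicate 2 or DKO N4 replicate 2, and the median turned to 0.28 with arrays centred on their medians. Npas4, a factor better known from neurons, read 8.73 and 8.60 in DKO N4 cells, against 4.19 and 4.18 in WT UN cells (difference 4.48).

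Factors of effector fate were more often lower, with 3 of 20 measured higher, 10 lower and 7 not past the test (median -0.82). The share higher was near the 16.5% of all genes tested, while the share lower was above their 22.9%. Tbx21, which encodes T-bet, a driver of the killer programme, read 11.69 and 11.66 in DKO N4 cells, 11.72 and 11.38 in WT N4 cells, and 8.61 and 9.27 in WT UN cells (difference from WT UN 2.74 ± 0.27, SE, limma adjusted p = 0.00013). Prdm1, the repressor Blimp-1 of late effector and plasma cells, read 6.48 and 7.07 in DKO N4 cells, against 10.53 and 9.49 in WT UN cells (difference -3.24), and Runx1 fell by 2.41. Irf4, which scales with T cell receptor strength, read 13.02 and 12.67 in DKO N4 cells, against 11.93 and 10.95 in WT UN cells. Its difference of 1.41 fell short of the test without DKO N4 replicate 1 (1.23), WT UN replicate 2 (0.92) or DKO N4 replicate 2 (1.58), or with its second probe set. The 3 higher members of the list became 1 without any single array of the 4, and the 10 lower became 6 without DKO N4 replicate 1 or WT UN replicate 2. Myc, the driver of T cell growth, read 12.93 and 12.73 in DKO N4 cells, against 12.22 and 12.15 in WT UN cells (difference 0.65, limma adjusted p = 0.0084), and did not pass without DKO N4 replicate 1 (0.55).

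Of 28 measured NF-kB subunits, regulators and targets, 1 was higher, 14 were lower and 13 did not pass, with a median difference of -0.44. Among all genes tested, 16.5% were higher and 22.9% lower. Besides Rel, Ikbke, a kinase related to the IkB kinases, read 8.74 and 8.60 in DKO N4 cells, 8.58 and 8.55 in WT N4 cells, and 11.28 and 11.21 in WT UN cells (difference from WT UN -2.58). Nfkbie, the inhibitor IkB epsilon, read 9.78 and 9.84 in DKO N4 cells, 10.70 and 10.55 in WT N4 cells, and 12.02 and 11.96 in WT UN cells (difference from WT UN -2.18). Slc2a6, a sugar transporter, fell by 3.17. Ikbke, Nfkbie and Slc2a6 were lower in WT N4 than in WT UN too, with differences of -2.68, -1.36 and -2.65. Nfkbie in WT N4 lay between the other groups, and DKO N4 differed from WT N4 by -0.82, which was not called. For the whole list, WT N4 against WT UN gave 2 higher and 15 lower members. The lower members became 9 without WT UN replicate 1 or DKO N4 replicate 2, and 8 with arrays centred on their medians.

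Genes of DNA replication rose together. Of 53 measured DNA replication genes, 50 were higher in DKO N4 cells, 0 lower and 3 did not pass, and the median difference was 1.12. The shares of all genes tested were 16.5% higher and 22.9% lower. Cdc6, which loads the replicative helicase, read 11.98 and 12.12 in DKO N4 cells, 12.03 and 12.09 in WT N4 cells, and 9.84 and 9.80 in WT UN cells (difference from WT UN 2.23 ± 0.13, SE, limma adjusted p = 1.6e-05). Ccne2, a cyclin of S phase entry, rose by 2.35 and Prim1, a DNA primase subunit, by 1.37. For Cdc6 and Ccne2 the DKO N4 and WT N4 arrays overlapped. Of 38 mitosis genes, 20 were higher, 1 lower and 17 did not pass (median 0.68). Mad2l1 and Nuf2, of the spindle checkpoint and the kinetochore, rose by 1.14 and 1.38.

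Genes of ribosome production and protein synthesis rose as well. For comparison, 16.5% of all genes tested were higher and 22.9% lower. Of 38 ribosome biogenesis genes, 35 were higher and 3 did not pass (median 0.82), with Nolc1, a nucleolar chaperone, at 12.99 and 12.98 in DKO N4 cells, against 11.60 and 11.45 in WT UN cells (difference 1.46). Nop58, of the box C/D particles, rose by 1.20 and Polr1b, of RNA polymerase I, by 1.41. Of 19 tRNA synthetases, 15 were higher and 4 did not pass (median 0.77), Mars1 by 1.08. Of 37 proteasome genes, 21 were higher, 1 lower and 15 did not pass (median 0.46), with Psme3 up by 1.23, and of 25 chaperones 15 were higher and 10 did not pass (median 0.46), with Stip1 up by 1.07. These counts leaned on the scaling and on single arrays. With arrays centred on their medians 28 ribosome biogenesis genes, 14 tRNA synthetases, 10 proteasome genes and 8 chaperones were higher. With quantile normalization the counts of higher members were 36, 15, 17 and 15 in that order, beside 3 lower proteasome genes. Without DKO N4 replicate 1 they were 22 for ribosome biogenesis, 10 for the proteasome and 7 for chaperones. Without WT UN replicate 2 they were 23 for ribosome biogenesis, 9 for tRNA synthetases, 11 for the proteasome and 8 for chaperones.

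Metabolic genes followed in part. For comparison, 16.5% of all genes tested were higher and 22.9% lower. Of 27 genes of amino acid transport, serine synthesis and the ATF4 response, 15 were higher, 3 lower and 9 did not pass (median 0.69). Psat1, an enzyme of serine synthesis, read 13.00 and 12.78 in DKO N4 cells, 13.05 and 12.87 in WT N4 cells, and 11.40 and 11.25 in WT UN cells (difference from WT UN 1.57), and Slc7a5, the large neutral amino acid transporter, rose by 1.33. Slc7a11, the cystine transporter, went the other way with 6.05 and 6.37 in DKO N4 cells, against 9.74 and 10.14 in WT UN cells (difference -3.73). Of 28 cholesterol and fatty acid genes, 11 were higher, 1 lower and 16 did not pass (median 0.48). Acsl6, an acyl-CoA synthetase, read 7.08 and 7.35 in DKO N4 cells, 9.80 and 9.57 in WT N4 cells, and 5.21 and 5.43 in WT UN cells (difference from WT UN 1.90). The 11 higher members became 7 without DKO N4 replicate 1 or WT UN replicate 2.

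Of 22 glycolysis genes, 6 were higher, 5 lower and 11 did not pass (median 0.43). The share lower was near the 22.9% of all genes tested, and the share higher was somewhat above their 16.5%. Hk2, the inducible hexokinase, read 11.78 and 11.67 in DKO N4 cells, 12.44 and 12.73 in WT N4 cells, and 11.10 and 10.89 in WT UN cells (difference from WT UN 0.73, limma adjusted p = 0.0043). Pfkfb4, which sets the level of a phosphofructokinase activator, fell by 1.59. Without DKO N4 replicate 1, or without WT UN replicate 2, 3 were higher and 3 lower. Of 44 oxidative phosphorylation genes, 13 were higher, 1 lower and 30 did not pass (median 0.29), set against those same shares of all genes. With quantile normalization 8 were higher and 2 lower (median 0.14, against 0.08 for all genes tested). With arrays centred on their medians 6 were higher and 0 lower. Ndufb6 of complex I and Uqcrfs1 of complex III rose by 0.77 and 0.72. The 13 became 3 without DKO N4 replicate 1 and 5 without WT UN replicate 2.

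**Figure D4:**
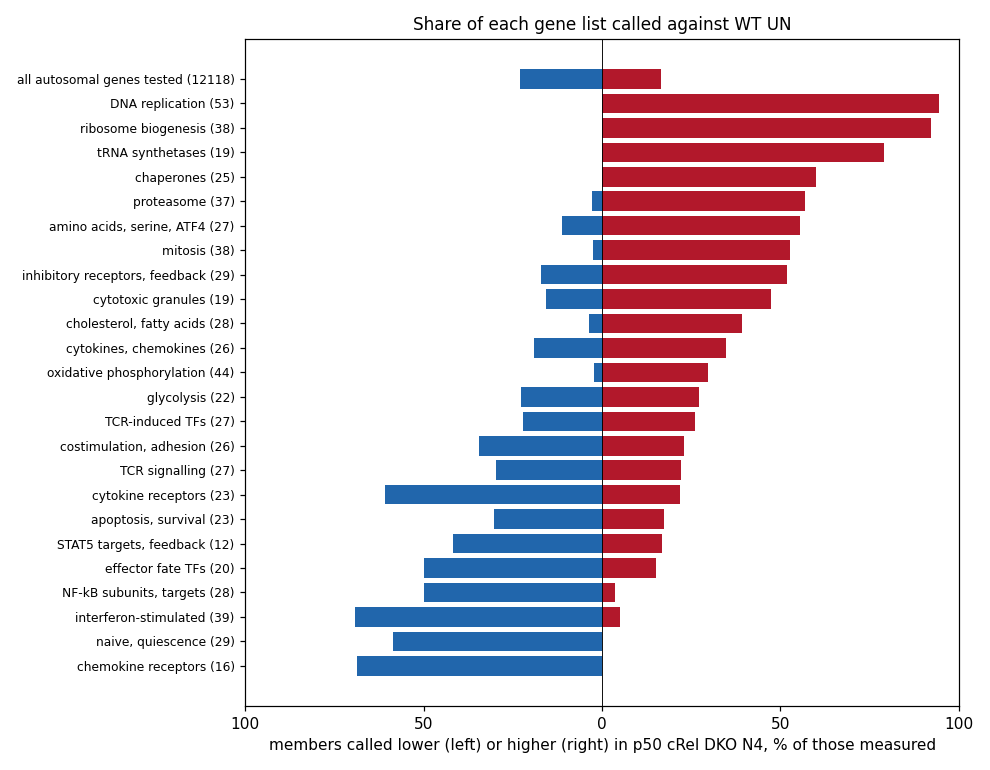
Share of the measured members of 24 gene lists called lower (left, blue) or higher (right, red) in p50 cRel DKO N4 against WT UN, in percent, with the number measured in brackets; the top bar gives the same for all 12118 autosomal genes tested. DNA replication and ribosome biogenesis have the highest shares of higher members, and naive and chemokine receptor genes have no higher member.

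Inhibitory receptors and feedback regulators were among the groups that rose, with 15 of 29 measured higher, 5 lower and 9 not past the test (median 1.04). That median was 0.54 with second probe sets, 0.56 without a filter on low values and 1.43 with arrays centred on their medians. Among all genes tested, 16.5% were higher and 22.9% lower. Spry1, an inhibitor of Ras signalling, read 12.15 and 12.07 in DKO N4 cells, 11.61 and 11.85 in WT N4 cells, and 7.65 and 7.73 in WT UN cells (difference from WT UN 4.42 ± 0.14, SE, limma adjusted p = 4.5e-06). Lag3, an inhibitory receptor for MHC class II, read 11.17 and 11.20 in DKO N4 cells, 11.86 and 12.19 in WT N4 cells, and 7.68 and 7.35 in WT UN cells (difference from WT UN 3.67). Rgs16, which dampens G protein signals, read 12.15 and 12.43 in DKO N4 cells, 10.87 and 10.77 in WT N4 cells, and 9.16 and 9.11 in WT UN cells (difference from WT UN 3.16). Spry1 and Rgs16 were higher on both DKO N4 arrays than on any WT array shown here, and Lag3 lay between the WT groups. Rgs16 was called against WT N4 (difference 1.47), while Spry1 (0.38) and Lag3 (-0.84) were not. Cd5, a receptor that tunes antigen receptor signals, rose by 3.30, by 2.70 without WT UN replicate 1 and by 3.90 without WT UN replicate 2, while Ctla4 rose by 1.76. Cd200r1, an inhibitory receptor also found on myeloid cells, read 4.17 and 4.28 in DKO N4 cells, against 9.17 and 8.72 in WT UN cells (difference -4.72).

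Of 27 genes of T cell receptor signalling, 6 were higher, 8 lower and 13 did not pass (median 0.08), near the shares of all genes tested (16.5% and 22.9%). Cd8a, the other chain of the CD8 coreceptor, read 13.29 and 12.89 in DKO N4 cells, against 11.15 and 11.62 in WT UN cells (difference 1.70), and Sh2d2a, an adaptor of activated T cells, rose by 1.51. Fyb, an adaptor of adhesion signals, fell by 2.15. The lower members became 4 without WT UN replicate 2 and 5 without DKO N4 replicate 2. Prkcq, which encodes PKCθ and was singled out after its values were seen, read 11.69 and 11.30 in DKO N4 cells, against 11.90 and 11.51 in WT UN cells, a difference of -0.21 ± 0.21 that did not pass (SE, limma adjusted p = 0.47). Of 26 costimulation and adhesion genes, 6 were higher, 9 lower and 11 did not pass, both shares somewhat above those of all genes tested. Their median of -0.20 turned to 0.19 with arrays centred on their medians. Slamf1 rose by 1.91, and the integrin gene Itga4 fell by 2.84, a call its second probe set did not pass. Cd69, an early activation marker, read 11.23 and 11.50 in DKO N4 cells, against 10.62 and 11.16 in WT UN cells, and its difference of 0.48 did not pass (limma adjusted p = 0.089). It did pass without WT UN replicate 2 (0.75) and with the replicate block.

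Receptors of the NK family rose in part. Klrc1, which encodes the inhibitory receptor NKG2A, read 11.92 and 12.21 in DKO N4 cells, 10.12 and 9.77 in WT N4 cells, and 7.57 and 8.39 in WT UN cells (difference from WT UN 4.09). Klrk1, which encodes the activating receptor NKG2D, rose by 2.15, and Crtam, an adhesion receptor of activated killer cells, by 4.14 (3.13 without WT UN replicate 1 and 5.15 without replicate 2). Among all genes tested, 16.5% were higher and 22.9% lower. Of 9 measured markers of NK cells and innate lymphocytes, a small list, 3 were higher, 3 lower and 3 did not pass. The lower ones include Tyrobp and Fcer1g, adaptors that myeloid cells also express, which fell by 4.87 and 4.85 on the log2 scale.

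Genes of the naive and resting state fell. Of 29 measured, 0 were higher, 17 lower and 12 did not pass, with a median difference of -1.11. Among all genes tested, 16.5% were higher and 22.9% lower. Klf2, the factor that keeps naive cells recirculating, read 8.96 and 8.54 in DKO N4 cells, 6.90 and 7.07 in WT N4 cells, and 12.71 and 12.36 in WT UN cells (difference from WT UN -3.79 ± 0.22, SE, limma adjusted p = 1.6e-05). Pik3ip1, a brake on PI3 kinase, read 7.44 and 7.38 in DKO N4 cells, 6.11 and 6.73 in WT N4 cells, and 10.87 and 11.01 in WT UN cells (difference from WT UN -3.52). Both genes were lower in DKO N4 than in WT UN cells and higher than in WT N4 cells on every array. Klf2 was called against WT N4 (difference 1.77), while Pik3ip1 (0.99) was not. Ccr7, the receptor for entry into lymph nodes, read 12.70 and 12.59 in DKO N4 cells, against 12.86 and 13.19 in WT UN cells, and did not pass (difference -0.38, limma adjusted p = 0.11), though it did under 2 of 19 alternatives. Of 16 chemokine receptors, 0 were higher, 11 lower and 5 did not pass (median -1.91), set against those same shares of all genes. Ccr9, the receptor for the gut chemokine CCL25, read 8.28 and 8.49 in DKO N4 cells, 5.78 and 6.60 in WT N4 cells, and 11.97 and 12.87 in WT UN cells (difference from WT UN -4.04).

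Interferon-stimulated genes also fell: of 39 measured, 2 were higher, 27 lower and 10 did not pass, with a median difference of -1.68. The shares of all genes tested were 16.5% higher and 22.9% lower. Samd9l, an antiviral factor, read 8.83 and 8.89 in DKO N4 cells, 7.80 and 7.59 in WT N4 cells, and 12.37 and 12.02 in WT UN cells (difference from WT UN -3.33). Rtp4 read 9.12 and 8.77 in DKO N4 cells, 7.14 and 7.24 in WT N4 cells, and 11.98 and 11.60 in WT UN cells (difference from WT UN -2.85). Ifih1, the RNA sensor MDA5, read 6.88 and 7.32 in DKO N4 cells, 6.93 and 6.78 in WT N4 cells, and 10.46 and 10.07 in WT UN cells (difference from WT UN -3.17). Samd9l and Rtp4 thus lay between the WT groups in DKO N4 cells, and Ifih1 lay near the WT N4 level. Rtp4 was called against WT N4 (difference 1.76), while Samd9l (1.17) was not. Markers of dendritic cells and macrophages, which also express these genes, fell between the same arrays.

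Of 23 measured apoptosis and survival genes, 4 were higher, 7 lower and 12 did not pass (median -0.26, 0.13 with arrays centred on their medians), near the shares of all genes tested. Bmf, a death-promoting BH3 protein, read 6.66 and 7.26 in DKO N4 cells, against 9.20 and 9.43 in WT UN cells (difference -2.35). The 7 lower members became 3 without WT UN replicate 1 or DKO N4 replicate 1, and 4 without WT UN replicate 2 or DKO N4 replicate 2. Outside the lists, Crabp2, a carrier of retinoic acid, read 12.29 and 11.97 in DKO N4 cells, 12.63 and 11.95 in WT N4 cells, and 5.60 and 4.94 in WT UN cells (difference from WT UN 6.86 ± 0.31, SE, limma adjusted p = 9.1e-06). Calcb, a calcitonin gene-related peptide, read 10.79 and 10.57 in DKO N4 cells, 8.67 and 7.27 in WT N4 cells, and 4.87 and 5.67 in WT UN cells (difference from WT UN 5.41). Slc9b2, a sodium and proton exchanger, rose by 4.51, and Chst2, a sulfotransferase, by 4.15, a call its second probe set did not pass.

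The largest falls were in genes of macrophages and neutrophils. Chil3, a chitinase-like protein of macrophages, read 5.21 and 5.44 in DKO N4 cells, 6.00 and 5.23 in WT N4 cells, and 11.34 and 12.17 in WT UN cells (difference from WT UN -6.43 ± 0.38, SE, limma adjusted p = 1.9e-05). S100a9, a calcium-binding protein of neutrophils and monocytes, read 5.44 and 5.58 in DKO N4 cells, 5.69 and 4.24 in WT N4 cells, and 11.43 and 12.36 in WT UN cells (difference from WT UN -6.39). Mmp8, the neutrophil collagenase, fell by 5.92, and Arg1, the arginase of macrophages, by 5.82. The 15 largest falls also hold Clec4a2, Tgfbi, Gpnmb, S100a4, Mmp12, Lpl, Sirpb1a, S100a8, Hp, Cd36 and Clec4d, with differences between -6.13 and -5.50. Of the markers, 37 of 39 for dendritic cells and macrophages, 10 of 11 for neutrophils and 19 of 19 for B cells were lower in DKO N4. The share lower among all genes tested was 22.9%. Fcmr, the IgM receptor of B cells, read 7.48 and 7.51 in DKO N4 cells, against 12.29 and 12.06 in WT UN cells. With the marker genes of other cell types left out of the fit, 4707 of 12032 genes were called. Unlisted genes that such cells express stayed in that fit, so this count cannot show their part in the results.

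Set directly against WT N4 cells, which by the labels differ in genotype alone, 61 genes (0.503%) were called in DKO N4 cells, 31 higher (0.256%) and 30 lower (0.248%), and 756 had an unadjusted limma p under 0.05. Eif2s3y, at 10.78 and 11.20 in WT N4 cells, separated these groups too. The count of 61 fell to 13 without DKO N4 replicate 1, 10 without DKO N4 replicate 2, 31 without WT N4 replicate 1 and 26 without WT N4 replicate 2. None of the measured markers of B cells, dendritic cells and macrophages, or neutrophils on the lists was among the 61. However, Cd36 and Ccl9, which myeloid cells express, were among them, at -1.75 and -2.17 from WT N4 (limma adjusted p = 0.011 and 0.018). Among the named genes called below WT N4, Il3 differed by -4.58 ± 0.29 (SE, n = 2 each, limma adjusted p = 0.00098), Lad1 by -4.33 and Il2 by -4.12 ± 0.30 (SE, limma adjusted p = 0.00098). Ifng differed by -1.12 and Il21 by -2.57 from WT N4, and neither passed. Because DKO N4 and WT N4 are both read against the same WT UN arrays, their differences from WT UN are given side by side and not compared further.

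A further 5 genes besides Il2, singled out after their values were seen, were lower than in WT N4 cells and not called against WT UN, while WT N4 was called above WT UN. Bhlhe40, a transcription factor of cytokine-producing T cells, read 11.34 and 11.28 in DKO N4 cells, 12.41 and 12.73 in WT N4 cells, and 11.23 and 11.66 in WT UN cells. Cd2, an adhesion receptor of T cells, read 11.02 and 10.76 in DKO N4 cells, 11.90 and 11.85 in WT N4 cells, and 11.12 and 11.13 in WT UN cells. Plscr1, a phospholipid scramblase, read 10.71 and 10.78 in DKO N4 cells, 12.11 and 12.03 in WT N4 cells, and 10.74 and 10.65 in WT UN cells. Hemk1 and Zdhhc2 differed from WT N4 by -1.56 and -1.70, and Hemk1 was called above WT UN with quantile normalization (0.85).

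Other genes were below both WT groups. Wdfy1 read 7.76 and 7.60 in DKO N4 cells, 9.99 and 9.86 in WT N4 cells, and 11.12 and 10.84 in WT UN cells, a difference from WT N4 of -2.24 ± 0.17 (SE, limma adjusted p = 0.0013). Tnfrsf25, the death receptor DR3, read 6.07 and 6.12 in DKO N4 cells, 8.31 and 8.50 in WT N4 cells, and 8.68 and 9.44 in WT UN cells. Pdlim4, a cytoskeletal adaptor, read 4.53 and 4.48 in DKO N4 cells, 7.67 and 6.77 in WT N4 cells, and 8.92 and 9.51 in WT UN cells. Lad1 read 6.78 and 6.35 in DKO N4 cells, 11.39 and 10.39 in WT N4 cells, and 8.77 and 11.04 in WT UN cells, and its difference of -3.34 from WT UN was -4.48 without WT UN replicate 1 and -2.21 without WT UN replicate 2. Utf1 differed from WT N4 by -2.37, and its difference of -1.38 from WT UN did not pass without WT UN replicate 1 (-1.31) or DKO N4 replicate 2 (-0.86), nor with quantile normalization or median centring. Its second probe set differed from WT UN by -0.63, which did not pass, and from WT N4 by 0.03, so both differences rest on 1 probe set.

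The genes above WT N4 were of several kinds. Gzmc stood 5.43 ± 0.47 above WT N4 (SE, n = 2 each, limma adjusted p = 0.0025), Prf1 2.28, Klrc1 2.12 and Rgs16 1.47. The second probe set of Prf1 stood only 0.095 above WT N4. Gstt1, a glutathione transferase, read 8.89 and 8.58 in DKO N4 cells, 6.11 and 6.97 in WT N4 cells, and 7.07 and 6.82 in WT UN cells. Several others were lower than in WT UN cells in both N4 groups and less so in the double knockout. Cd7, a receptor of T cells and NK cells, read 7.25 and 7.69 in DKO N4 cells, 4.64 and 4.38 in WT N4 cells, and 11.30 and 10.90 in WT UN cells. Ifi213, an interferon-inducible gene, read 8.40 and 8.52 in DKO N4 cells, 6.17 and 5.87 in WT N4 cells, and 11.14 and 11.07 in WT UN cells, and its second probe set stood only 0.62 above WT N4. Ifit1bl1 stood 3.66 above WT N4, Tmem71 2.35, Ltb, a ligand of the TNF family, 2.20, and Klf2 1.77. The difference of Ltb from WT UN, -1.04, did not pass with arrays centred on their medians (-0.65). Also singled out after their values were seen, Tapbp of the peptide-loading complex, Otud1 and Gstt3, stood 1.04, 2.21 and 2.95 above WT N4 and were not called against WT UN. Tapbp passed that test under 3 of 19 alternatives, among them without DKO N4 replicate 1 (-0.59), and Gstt3 (difference 1.09) under 5, among them without WT N4 replicate 1 or 2.

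**Figure D5:**
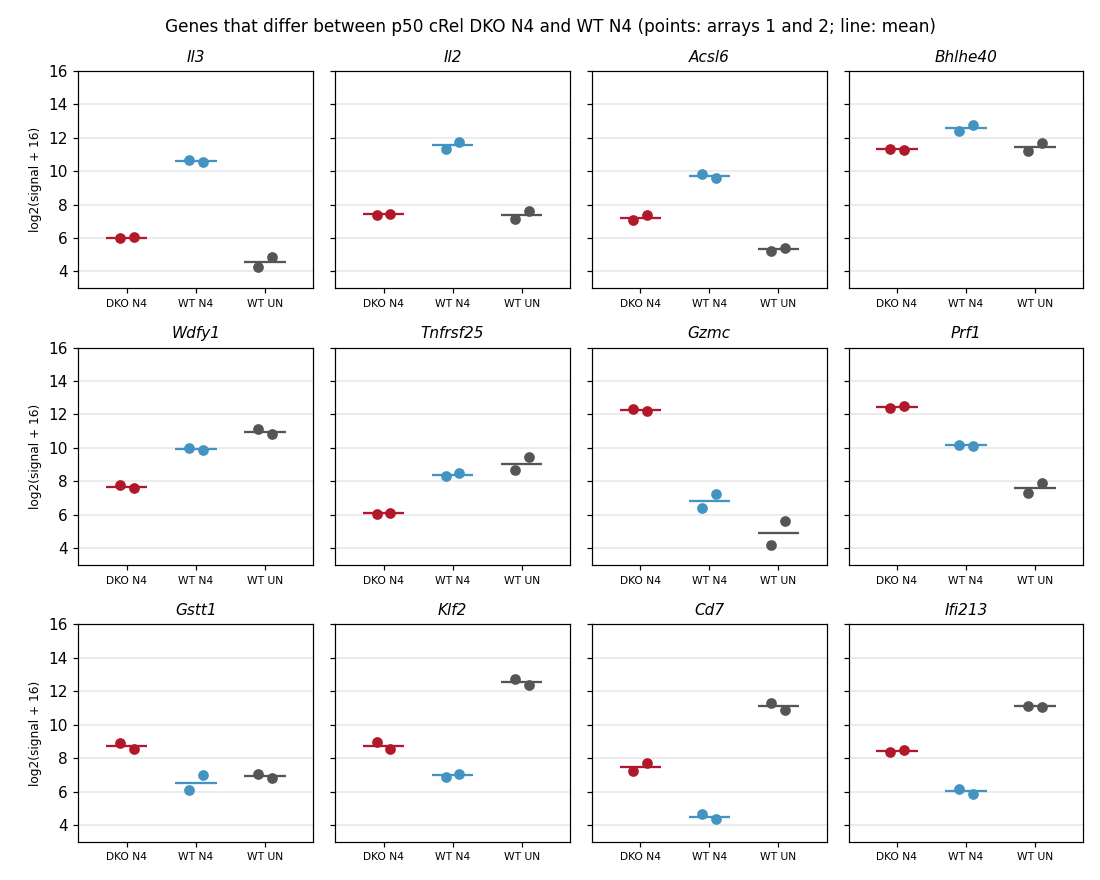
Levels, log2(signal + 16), of 12 genes called between p50 cRel DKO N4 and WT N4, with WT UN beside them; points are single arrays and lines are group means. Il3, Il2, Acsl6, Bhlhe40, Wdfy1 and Tnfrsf25 lie lower in DKO N4 than in WT N4, and Gzmc, Prf1, Gstt1, Klf2, Cd7 and Ifi213 lie higher.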

How the data were processed

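The deposited values are intensity values, 1 linear signal per probe set and array, which the authors computed in GCOS 1.4 using the MAS5 method, per the submitters' processing notes. The 2% trimmed mean is 500 on every array, so the arrays were scaled to 1 target. Probe sets were named through the platform annotation, and symbols were brought up to date through Entrez identifiers with RefSeq's GRCm38.p6 table. Detection calls were not used. Values were taken as log2(signal + 16), and probe sets with a mean under the 40th percentile (5.38) were left out. The probe set with the highest mean stood for each gene, which gave 12520 genes, 402 of them sex-linked or unplaced. All 8 arrays, 2 in each of 4 groups, entered 1 limma 3.58.1 model in R 4.3.3 (lmFit, then eBayes with trend, on 4 residual degrees of freedom), with Benjamini-Hochberg adjustment over all genes fitted. The groups were DKO N4, WT N4, WT UN and PKC theta knockout cells with N4. The code was tested on simulated data. Median signal lay between 33.6 and 70.3, the 3′ to 5′ ratio of Gapdh between 0.778 and 0.861, and Pearson's r of the arrays of a group, across genes, between 0.977 and 0.987. The number of arrays limits the precision.

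The members, the 32 lists and the rule for named genes were chosen with earlier results of these data known. Named were Rel, the 15 largest rises and falls among called genes, up to 4 members per list with the lowest p, 15 fixed genes, of which 1 is not reported here, the 8 called genes farthest from WT N4 in each direction, and sex-linked genes. Not every gene so named is printed. Genes outside the rule are marked as chosen after their values were seen. The alternatives were other pseudocounts, filters, scalings, probe sets, variance settings and sample sets, a replicate block, the fit without marker genes, and each array left out.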

Additional observations from a re-analysis of the deposited data

How the results depend on the processing

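The number of autosomal genes called between DKO N4 and WT UN was 4773, and with each array left out in turn it lay between 3132 and 4839. For WT N4 against WT UN it was 4941, and between 3436 and 4964. For DKO N4 against WT N4 it was 61, and between 10 and 73 with an array left out, 31 with arrays centred on their medians, 31 without the mean-variance trend, 35 with the second probe set of each gene, and 193 with the replicate block. With that block the first count was 6121 and the second 6202. Deviations of same-numbered arrays from their group means correlated between 0.253 and 0.580 over the pairs of groups, but each comparison has 2 pairs and the labels give no shared source, so the pairing was not used. Of 170 genes recomputed under 16 to 19 alternatives each, 152 were called, 123 under every alternative run for them, and 29 lost the call in at least 1. The difference of Ndufa10, of complex I, turned to -0.19 with its second probe set, and that of Il17a, -0.17 and not called, to 2.11 without WT UN replicate 2 and -2.46 without WT UN replicate 1. The causes were not tested. With 2 arrays a group, low-signal genes with small differences are the least likely to be called, and dim probe sets carry no detection call here.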
